A study of Mus musculus with 46 samples.

Results

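The comparison concerned MMTV-PymT mammary tumors (n = 6) and normal mammary glands of pregnant mice (n = 5), which are 11 of the 46 arrays of the series. Members were the arrays whose sample titles name MMTV-PymT or pregnant FVB mice, and both groups are of strain FVB. In MMTV-PymT mice the polyoma virus middle T antigen is driven by the promoter of the mouse mammary tumor virus, which is active in mammary epithelium and also in salivary gland and lymphoid cells. The tumors came from individual mice, were intact tissue pieces, and carry the transgene, which the glands lack. The glands came from pregnant females with no transgene, so the comparison sets tumors against a gland preparing for lactation and not against a resting one, and pregnancy and the absence of tumor cannot be told apart. The age of the animals is not stated. The other MMTV tumors, of the MMTV-H-Ras (n = 5), MMTV-Her2/neu (n = 5), MMTV-c-Myc (n = 4) and MMTV-Wnt1 (n = 4) models, also FVB, served only to show where MMTV-PymT differed from models with the same promoter. No probe set named for the transgene was analysed here, so the labels were checked on tissue markers alone.

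Middle T antigen is a membrane-bound viral protein with no enzyme activity of its own. It recruits protein phosphatase 2A and Src family kinases, is phosphorylated on tyrosine, and then docks the adaptors Shc and Grb2, which lead to Ras and ERK, and the p85 subunit of phosphatidylinositol 3-kinase, which leads to Akt. In the pregnant gland, prolactin acting through the transcription factor STAT5 drives alveolar cells to make caseins, whey proteins and milk fat inside a bed of adipocytes, vessels and contractile myoepithelial cells.

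Measurements were mRNA levels on arrays, given as deposited log2 values after GC-RMA, a background correction that leaves unexpressed probe sets near 2. Levels are compared between arrays for 1 gene at a time and not between genes. A gene was called when its Benjamini-Hochberg adjusted p from limma was under 0.05. For counts over the whole array a difference of at least 2-fold was required too. Across the 9329 genes tested, 1468 (15.7%) were higher and 976 (10.5%) lower in the tumors than in the glands. With each array centred on its median the split was 966 higher and 1344 lower, and with quantile normalization 1112 higher and 1114 lower. The median difference over all genes was 0.15 on the log2 scale, and -0.15 after centring, so differences of that size have no settled direction. Without the 2-fold minimum, which is the rule used for members of gene lists, 20.3% of all genes were higher and 12.3% lower. In 15.3% of genes all 6 tumors lay above all 5 glands and in 10.6% all lay below. Each tumor correlated across genes, which are not independent replicates, with the other tumors at a mean of 0.930 to 0.962. MMTV-PymT 2 stood apart from the other 5 tumors in salivary gland genes, as described below, and normal gland 2 stood apart from the other 4 glands in skeletal muscle genes.

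Milk protein genes separated the groups unevenly. Of 16 measured genes of caseins and other milk proteins, 8 were lower and 0 higher in the tumors, against 12.3% and 20.3% of all genes. In 11 all tumors lay below all glands, against 10.6% of all genes. The median difference was -3.63, against 0.15 over all genes. Kappa-casein mRNA (Csn3), whose protein keeps the casein micelle in suspension, was at 15.03, 15.21 and 15.58 as lowest, median and highest value of the 6 tumors. The 5 glands read 15.39, 15.43, 15.31, 15.60 and 15.51. The ranges overlapped, the difference was -0.19 (SE 1.21, adjusted p = 0.94, limma), and Csn3 was among the 10 genes with the highest mean in the tumors, as was Wfdc18, a small secreted whey-type protein (14.72 to 14.97 in tumors and 14.96 to 15.38 in glands). The highest value of any gene on the 46 arrays was 15.98, so these levels lie near the top of the scale.

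Whey acidic protein (Wap), a major rodent whey protein, read 15.57, 15.58, 15.48, 15.66 and 15.56 in the glands. Its lowest, median and highest tumor values were 9.58, 11.60 and 13.01. All tumors were below all glands, by 4.30 on average, which is a log2 difference of -4.30 (SE 1.50, adjusted p = 0.024, limma). The glands lie near the top of the scale, so this difference may be an underestimate. Beta-casein (Csn2) was at 7.93, 12.34 and 14.27 in the tumors. The glands lay at 15.47, 15.50, 15.33, 15.36 and 15.21 and did not overlap with them. The tumors thus spread over more than 6 log2 units where the glands spread over less than 1. The other Csn2 probe set differed by -5.37 in the 9-group fit (adjusted p over probe sets 0.038, limma). On the probe set used the difference was -3.77. It did not pass with the spread shared by all 9 groups (SE 2.14, adjusted p = 0.18) and did pass in a limma fit of the 11 arrays alone (adjusted p = 0.0087). The same held for alpha-s1-casein (Csn1s1), with a difference of -4.06 (adjusted p = 0.10, and 0.0013 in the 11 arrays), and for alpha-lactalbumin (Lalba), the regulatory subunit of lactose synthase.

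Lalba varied little among the tumors, with 10.86, 11.71 and 11.95 as lowest, median and highest value. The glands read 13.20, 13.34, 13.07, 14.80 and 14.27. All tumors were lower, the difference was -2.14 (SE 1.84, adjusted p = 0.41), and in the fit of the 11 arrays alone the adjusted p was 0.00053. Against the other MMTV tumors, whose mean was 6.34, Lalba was 5.25 higher in MMTV-PymT (SE 1.43, adjusted p = 0.019, limma), a call lost without MMTV-PymT 1 (adjusted p = 0.053) or MMTV-PymT 2 (adjusted p = 0.052). The models differed among themselves, and the 5 MMTV-Her2/neu tumors, at 11.34 to 13.69, overlapped with MMTV-PymT, whereas MMTV-Wnt1 tumors were at 2.06 to 2.11. Wap was 4.59 higher than the mean of those models (adjusted p = 0.012), although 1 MMTV-c-Myc tumor reached 14.63 and 1 MMTV-H-Ras tumor 11.28. In that comparison 302 genes (3.24%) were higher and 136 (1.46%) lower over the whole array. Without the 2-fold minimum the shares were 4.95% and 2.37%, and by that rule 4 of the 16 milk protein genes were higher and 1 was lower.

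Glycam1, a mucin-like milk protein under prolactin control, read 15.66, 15.65, 15.51, 15.90 and 15.86 in the glands. In the tumors it ran from 2.36 through a median of 3.38 to 11.41, with MMTV-PymT 1 (11.41) and MMTV-PymT 2 (10.67) far above the other 4. The difference was -10.12 (SE 1.93, adjusted p = 0.0001). Csn1s2b, a second alpha-s2-casein gene, was at 2.34, 2.41 and 4.92 in the tumors and at 11.94, 11.36, 9.83, 14.14 and 11.98 in the glands (difference -9.03, SE 0.66, adjusted p = 1.1e-13). Bile salt-activated lipase of milk (Cel) fell by 8.25, and proteins of the milk fat globule fell less, butyrophilin (Btn1a1) by 4.09, mucin 1 (Muc1) by 3.49 and xanthine dehydrogenase (Xdh) by 3.15, all with adjusted p from limma of 0.015 or below.

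Stat5a, the prolactin-activated transcription factor of alveolar cells, was at 8.57, 9.33 and 9.69 in the tumors and at 10.34, 11.66, 11.22, 11.24 and 11.18 in the glands, a difference of -1.84 (SE 0.68, adjusted p = 0.034, limma) that lost its call on leaving out any 1 of 7 arrays, with adjusted p up to 0.077 (without normal gland 2). Elf5, the alveolar transcription factor, was at 11.99 to 12.86 in tumors and 12.66 to 13.68 in glands, with overlapping ranges (difference -0.54, adjusted p = 0.85). Its second probe set gave -3.52 (adjusted p over probe sets 0.032, limma) and the mean of both -2.03 (adjusted p = 0.27), so the size of its difference is not settled. Of 16 genes of STAT5 and hormone response measured, 2 were higher and 7 lower, against 20.3% and 12.3% of all genes. Their median was -1.01, and in the 11 arrays alone 4 were higher. Cish, a feedback inhibitor induced by STAT5, fell by 3.00 (SE 0.48, adjusted p = 7.4e-06), whereas Socs2, another inhibitor of the same family, rose by 1.85 (SE 0.60, adjusted p = 0.015). Tnfsf11, which encodes RANKL, a paracrine signal of hormone-responsive cells, was at 2.31 to 2.38 in all 6 tumors and at 6.91, 5.93, 7.15, 2.80 and 7.17 in the glands (adjusted p = 0.00021). Igf1 fell by 3.61 (adjusted p = 0.0038) and Id2, an inhibitor of basic helix-loop-helix factors needed for alveolar development, rose by 2.03 (adjusted p = 0.00072).

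STAT5 binds a palindrome of the letters TTCNNNGAA, which reads the same on both strands. Promoter windows from 250 bases before to 50 after the annotated start (RefSeq, GRCm38.p6) were found for 12 of the 16 milk protein genes. Of these 12, 5 (41.7%) held the motif. The share was 8.15% of the 7523 tested genes with a window, and 9.55% of all 27025 genes with one. Among genes lower in the tumors it was 8.65%, and among genes higher 7.24%, both near the 8.15% of tested genes. A match is a description of letters and not of binding. The 3 matches that lie before the start of a gene described here are shown on the gene's strand with the motif in capitals, at chr5:87699500-87699528 (minus strand), chr5:87666098-87666126 (plus strand) and chr15:103565208-103565236 (minus strand). The motif begins at position -93, -100 and -145 from the annotated start.
Csn2: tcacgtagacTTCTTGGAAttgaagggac
Csn1s1: tttgtaacaaTTCTTAGAAtttatgtaaa
Glycam1: gccaactcatTTCCCAGAAacaccaattc
Csn2 and Csn1s1 were at 7.93 or more in every tumor, and Glycam1 was under 4 in 4 of them. Levels are not compared between genes, and whether a match goes with a level was not tested.

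**Figure D1:**
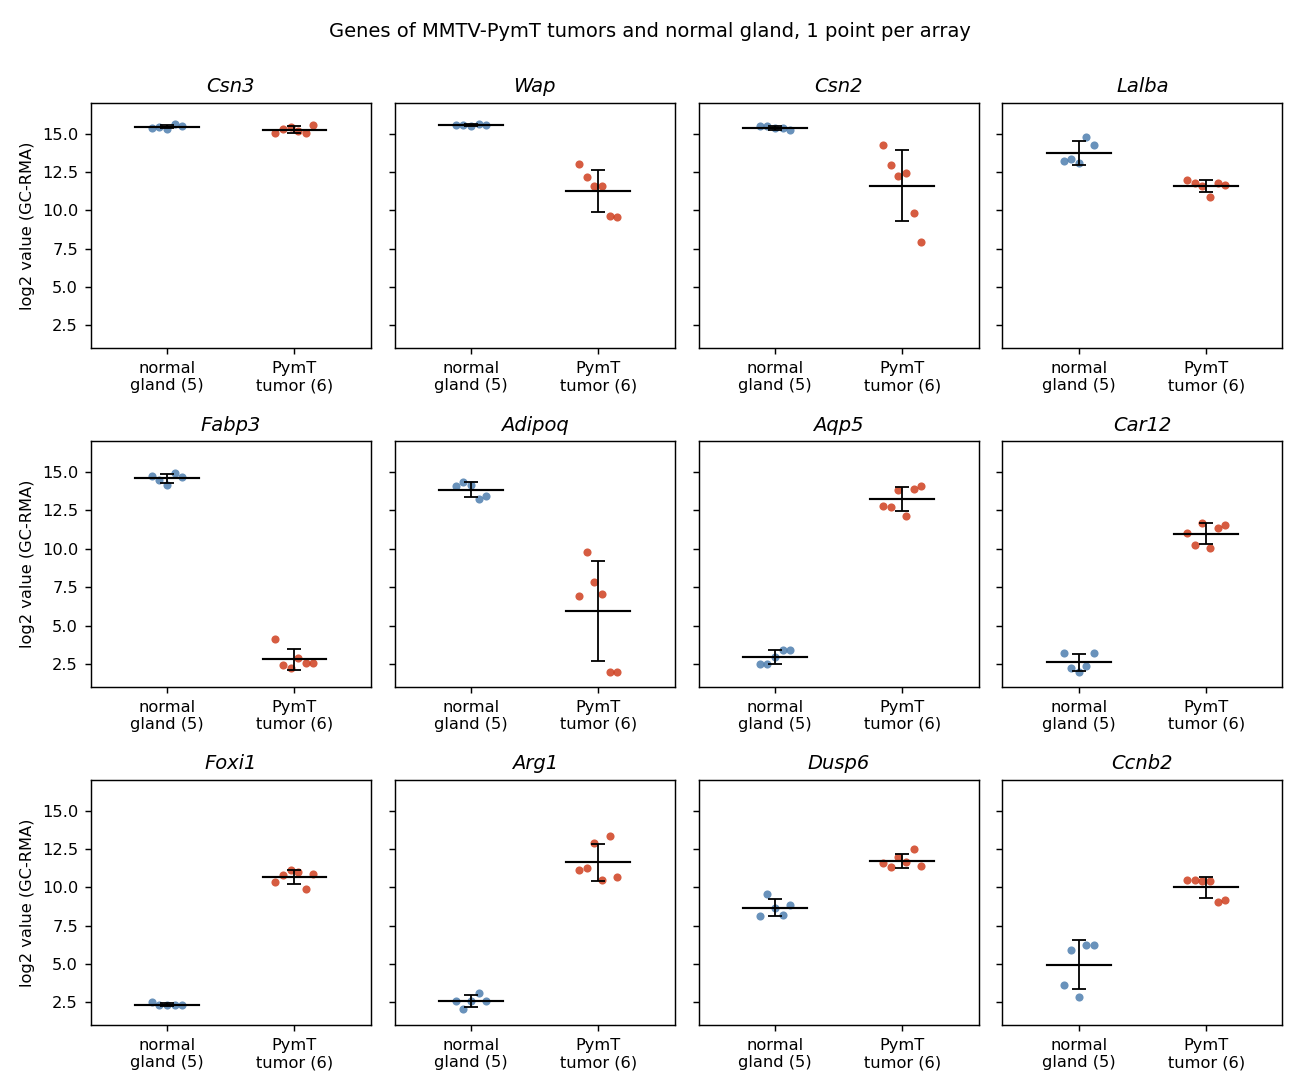
Log2 values of 12 genes in the 5 normal glands (blue) and 6 MMTV-PymT tumors (red), 1 point per array, in replicate order from left to right, with the mean as a line and the SD as error bars. Csn3 overlapped between the groups at about 15, Wap, Csn2 and Lalba were lower in every tumor, and Aqp5, Car12, Foxi1 and Arg1 were near the floor in every gland.

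Milk fat genes were lower as a group. Of 21 measured genes of fatty acid and triglyceride synthesis, 17 were lower and 1 was higher, with a median of -2.67. Fabp3, a fatty acid binding protein of the lactating gland and of muscle, showed the largest decrease on the array among genes whose groups do not overlap. It was at 2.21, 2.54 and 4.11 in the tumors and at 14.74, 14.45, 14.13, 14.97 and 14.65 in the glands. No tumor came within 10 log2 units of a gland, and the difference was -11.80 (SE 1.29, adjusted p = 6.1e-09, limma). Olah, the thioesterase that releases the medium-chain fatty acids typical of milk, was at 2.36 to 4.36 in tumors and at 11.47, 11.40, 9.68, 12.58 and 11.54 in glands (difference -8.47, adjusted p = 2.2e-17). The uptake genes Lpl and Cd36 fell by 6.56 and 7.67, the lipid droplet protein gene Cidea by 8.83 and the last acyltransferase of triglyceride synthesis, Dgat2, by 7.41, with adjusted p of 9.2e-05 or below. The synthetic enzymes Fasn and Acaca fell by 3.22 and 4.68. Fasn stayed well above the floor in the tumors (10.38 to 11.49), whereas Acaca was at 2.09 to 2.15 in all of them. The only member that rose was Scd2, a stearoyl-CoA desaturase, at 13.13, 13.59 and 14.19 in the tumors and 9.47, 10.31, 10.80, 10.88 and 10.27 in the glands (difference 3.25, SE 0.34, adjusted p = 2.4e-09).

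Adipocyte markers moved with the milk fat genes, several of which adipocytes also express. All 11 measured markers were lower in the tumors, in 10 of them without overlap, and the median was -6.33. Their mean level was 3.38 to 6.25 in the tumors and 10.14 to 12.28 in the glands. Adiponectin (Adipoq) was at 1.99, 7.00 and 9.82 in the tumors, with MMTV-PymT 5 and MMTV-PymT 6 at the floor, and at 14.07, 14.35, 14.17, 13.22 and 13.44 in the glands (difference -7.91, adjusted p = 0.00066). Cidec, Retn and Lipe, genes of lipid droplets, resistin and hormone-sensitive lipase, fell by 9.09, 8.51 and 7.96. Genes abundant in fat and liver were also among the 12 largest decreases, namely Cyp2e1 (-8.96), Pdk4 (-8.79), Pck1 (-8.71) and Rbp4 (-8.48). In pieces of bulk tissue, fewer cells of a type and less RNA per cell cannot be told apart. The part of adipocyte loss in the milk fat genes was not tested.

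Transport genes divided in both directions. Of 17 measured genes of water, ion and carbonate transport in milk secretion, 4 were higher and 7 lower. Over all genes the shares were 20.3% and 12.3%, so the count of higher genes was near its share. Aquaporin 5 (Aqp5), a water channel of the apical membrane in salivary, sweat and lung glands, was at 12.12, 13.31 and 14.07 in the tumors and at 2.50, 2.51, 2.97, 3.38 and 3.38 in the glands. The groups were separated by more than 8 log2 units (difference 10.29, SE 0.72, adjusted p = 4.1e-14, limma). The carbonic anhydrases Car12 and Car6, a membrane form and a secreted form, rose by 8.39 (adjusted p = 3.8e-11) and 6.59 (adjusted p = 0.001), while Car4, another membrane form, was at 2.19 to 2.29 in the tumors against 10.72, 11.22, 10.15, 12.54 and 10.67 in the glands (difference -8.82, adjusted p = 3e-14). Aquaporins 3 and 1 (Aqp3, Aqp1) fell by 6.79 and 4.44. The transporter Abcg2, which moves riboflavin and drugs into milk, fell by 3.81 (adjusted p = 0.00026) and the potassium channel Kcnn4 rose by 2.38 (adjusted p = 0.0049). Aqp5 and Car12 did not pass the test against the other MMTV tumors (differences 0.64 and 0.48, adjusted p = 0.51 and 0.65). The phosphate carrier Slc34a2 lay between, 2.57 below the glands (adjusted p = 0.021, but 0.096 without normal gland 4) and 2.91 above the other MMTV tumors (adjusted p = 0.0067).

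Of 18 luminal epithelial markers measured, 5 were higher, against 20.3% of all genes, 1 was lower and 12 were not called (median 1.38). In the fit of the 11 arrays alone 11 were higher. The luminal keratins Krt8 and Krt18 rose by 1.70 (SE 0.41, adjusted p = 0.0014) and 1.84 (SE 0.54, adjusted p = 0.0075). Krt8 was at 13.33 to 14.16 in tumors and 12.26, 11.63, 11.54, 12.02 and 12.98 in glands, without overlap. Prom1, a membrane glycoprotein of luminal progenitors, was at 10.46 to 11.46 in tumors and 2.58, 2.89, 5.40, 4.75 and 3.51 in glands (difference 7.15, adjusted p = 0.00028). The adhesion molecules Epcam and Cdh1 were also higher in every tumor than in every gland, by 1.83 and 1.04, without passing in the 9-group fit (adjusted p = 0.27 and 0.36) and with adjusted p of 5.5e-05 and 0.0026 in the 11 arrays. Of 20 epithelial junction genes, 7 were higher and 1 lower in the 9-group fit, against 20.3% and 12.3% of all genes. In the 11 arrays 15 were higher and 2 lower. The 1 lower call of the 9-group fit was lost on leaving out any 1 of 6 arrays. The basement membrane and desmosome proteins Lad1 and Dsc2 and the claudin Cldn1 rose by 6.23, 3.97 and 4.54. In the glands, epithelium shares the piece with fat and muscle. The mean level of adipocyte markers was higher in every gland than in every tumor. That of skeletal muscle markers was so in every gland but normal gland 2. Their part in the epithelial differences was not tested.

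Of 14 basal and myoepithelial markers measured, 7 were lower and 1 higher (median -2.55), against 12.3% and 20.3% of all genes. Myh11, the smooth muscle myosin heavy chain, was at 2.30 to 2.44 in the tumors and 8.88, 9.51, 9.02, 10.04 and 8.65 in the glands (difference -6.83, adjusted p = 9.9e-07). Calponin (Cnn1) fell by 6.13, transgelin (Tagln) by 6.40 and smooth muscle actin (Acta2) by 4.53. Vessel wall cells also carry these genes. Krt14 overlapped between the groups (8.21 to 10.72 in tumors, 8.87 to 10.55 in glands, difference -0.51, adjusted p = 0.82) and Krt5 differed by -1.93 (adjusted p = 0.35, and 0.02 in the 11 arrays), with its lowest value, 4.60, in MMTV-PymT 6. Integrin beta 4 (Itgb4), a part of hemidesmosomes, rose by 2.98 (adjusted p = 0.0028). Among 15 mesenchymal genes 7 were lower and 0 higher, against 12.3% and 20.3% of all genes. The lower count was only 4 without normal gland 2 and 3 without normal gland 3. The repressors of E-cadherin Zeb1 and Snai2 fell by 3.85 (adjusted p = 0.001) and 3.03 (adjusted p = 0.007), and both kept their call in every fit that left out an array.

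Most cell division genes were higher. Of 26 measured genes of DNA replication 24 were higher and 0 lower (median 2.63), and of 26 genes of mitosis 24 were higher and 0 lower (median 3.46), against 20.3% of all genes. All tumors were above all glands in 21 and 23 of them. The mitotic cyclin Ccnb2 was at 9.03, 10.41 and 10.49 in the tumors and 3.63, 5.90, 2.83, 6.23 and 6.24 in the glands (difference 5.03, SE 0.78, adjusted p = 4.8e-06, limma). The mitotic kinase Aurka rose by 4.95, Plk1, another, by 4.44, topoisomerase II alpha (Top2a) by 4.44 and the checkpoint kinase Bub1 by 4.35. The other probe set of Bub1 differed by -0.57 (adjusted p over probe sets 0.35, limma), and the mean of both rose by 1.89. In replication, the clamp loader subunit Rfc5 rose by 4.32, the helicase subunits Mcm5 and Mcm2 by 3.74 and 2.62, and the polymerase subunit Pole2 by 3.66. The proliferation marker Mki67 differed less, with tumors at 9.91, 10.74 and 11.19 and glands at 9.51, 8.35, 7.40, 10.78 and 9.22, so that normal gland 4 lay within the tumor range (difference 1.63, SE 0.47, adjusted p = 0.0068). Only 1 replication gene and 1 mitosis gene were higher than in the other MMTV tumors, and 0 were lower. Of 18 cyclins and cyclin-dependent kinase genes with their inhibitors, 3 were higher and 2 lower, against 20.3% and 12.3% of all genes. The lower count was 1 without MMTV-PymT 3 or MMTV-PymT 6. The kinases Cdk4 and Cdk2 rose by 2.10 and 2.23 and the inhibitor Cdkn1c fell by 2.23.

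Middle T antigen acts through cellular partners, and mRNAs of 15 of them were measured. Their median of 0.24 was near the 0.15 of all genes. Of the 15, 6 were higher and 0 lower, against 20.3% and 12.3% of all genes. The count was 3 without MMTV-PymT 3 or without normal gland 1, and after centring it was 3 higher and 3 lower. Pik3r1, which encodes the p85 regulatory subunit, was at 11.87, 12.37 and 12.66 in the tumors and 10.52, 10.92, 9.89, 11.59 and 11.45 in the glands. All 6 tumors lay above all 40 other arrays of the series, the highest of which read 11.59. That comparison used the deposited values of 1 probe set and was not repeated under the alternatives. Other Pik3r1 probe sets differed from normal gland by 0.34 and 2.24 (adjusted p over probe sets 0.75 and 0.0068, limma). The difference from normal gland was 1.44 (SE 0.53, adjusted p = 0.032, limma) and lost its call after centring (adjusted p = 0.092), with the mean over probe sets (0.052) and on leaving out any 1 of 5 arrays (at most 0.11, without normal gland 3). The difference from the other MMTV tumors was 2.21 (SE 0.41, adjusted p = 0.00058) and kept its call under every alternative. Genes with all 6 tumors beyond all other arrays numbered 3 on the whole array, and the other two, named after their values were seen, were Sap30bp, above, and Arap3, below.

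Grb2, the adaptor that couples receptors and middle T to Ras, was at 9.60, 10.02 and 10.39 in the tumors and 8.19, 8.50, 8.06, 8.90 and 8.56 in the glands. All tumors were higher (difference 1.59, or 0.99 as the mean over probe sets, SE 0.25 and adjusted p = 5e-06 for the first), and the tumors were 1.13 above the mean of the other MMTV models (adjusted p = 0.00025), a call lost with the mean over its probe sets (0.61, adjusted p = 0.12). The scaffold subunit of protein phosphatase 2A (Ppp2r1a) rose by 1.15 (adjusted p = 7.6e-06) and Yap1, a co-activator of the Hippo pathway, by 1.09 (adjusted p = 0.0007). Other probe sets of Ppp2r1a differed by 0.40 (adjusted p over probe sets 0.15, limma) to 1.18.

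Genes that ERK signalling induces, most of them feedback inhibitors, were higher in part. Of 15 measured, 7 were higher, 0 lower and 8 not called (median 1.40), against 20.3% higher and 12.3% lower of all genes. In 7 all tumors lay above all glands, against 15.3% of all genes. Dusp6, a phosphatase that inactivates ERK, was at 11.30, 11.60 and 12.53 in the tumors and 8.16, 9.57, 8.65, 8.22 and 8.82 in the glands (difference 3.05, SE 0.58, adjusted p = 9.5e-05, limma). The transcription factor Etv5 was at 8.03 to 8.93 in the tumors against 3.94, 3.76, 3.70, 4.00 and 3.91 in the glands (difference 4.56, adjusted p = 0.00028). The early response genes Ier3 and Egr1 rose by 3.88 and 2.83 and the Ras inhibitor Spred1 by 2.31. Etv4, a relative of Etv5, differed by 0.95 (adjusted p = 0.16, and 0.027 in the 11 arrays). None of the 15 was higher than in the other MMTV tumors and 2 were lower, of which Etv4 by 2.15 (difference -2.15, adjusted p = 0.00069).

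Of 15 measured genes of the PI3K, Akt and mTOR pathway, 10 were not called, 1 was higher and 4 were lower (median -0.31). Over all genes the shares were 20.3% higher and 12.3% lower. In the 11 arrays alone, and without MMTV-PymT 2 or normal gland 4, 2 were higher. Ddit4, a stress-induced inhibitor of mTOR complex 1, was at 10.87, 11.22 and 11.51 in the tumors and 6.42, 7.38, 5.48, 6.59 and 5.48 in the glands (difference 4.91, SE 0.49, adjusted p = 8.9e-10). It also exceeded the other MMTV tumors by 2.59 (adjusted p = 3.4e-05). Akt1, Akt2, Mtor and the translational repressor Eif4ebp1 fell by 1.29, 1.52, 1.31 and 1.58, with adjusted p of 0.002 or below. Phosphorylation, by which this pathway signals, was not measured.

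**Figure D2:**
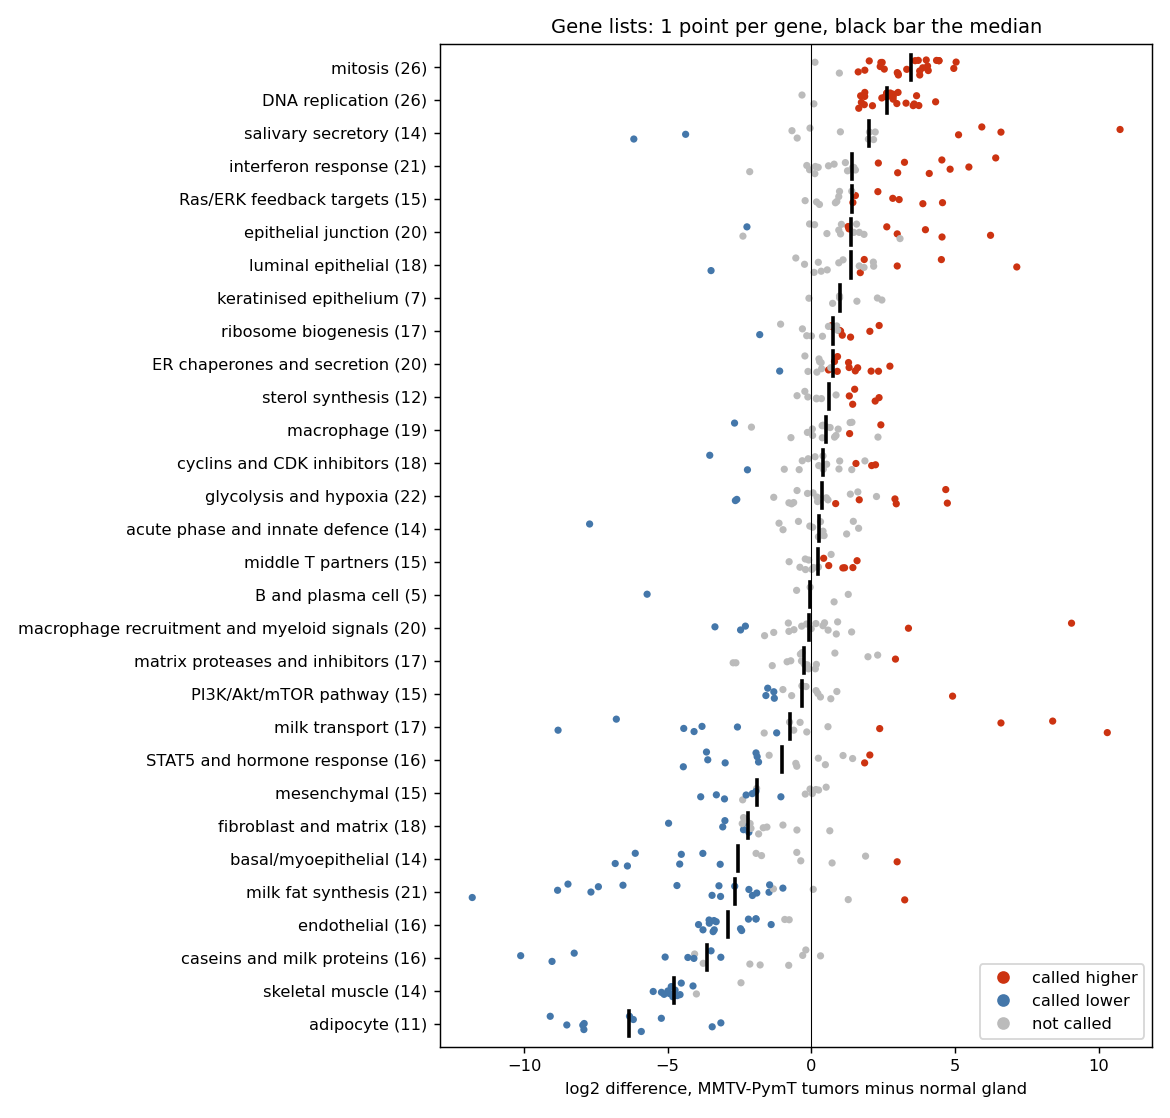
Log2 difference between MMTV-PymT tumors and normal gland for each measured gene of the lists with at least 5 genes measured, 1 point per gene, with the median as a black bar and red and blue for genes called higher and lower. Mitosis and DNA replication lie at the top with medians of 3.46 and 2.63, and adipocyte genes at the bottom with -6.33.

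Secretory pathway and metabolic genes changed by smaller amounts. Of 20 genes of endoplasmic reticulum chaperones and secretion, 11 were higher and 1 lower (median 0.74), against 20.3% and 12.3% of all genes. The list holds stress-response transcription factors too, and the lower gene was the transcription factor gene Atf6. Without MMTV-PymT 5, normal gland 2 or normal gland 4 the lower count was 0. Against the other MMTV tumors 6 were higher, where the share of all genes was 4.95%. Sdf2l1, a component of chaperone complexes, rose by 2.73 against glands (adjusted p = 3.6e-05) and was 2.43 above the other models (adjusted p = 6.6e-05). The disulfide isomerase Pdia4 rose by 2.08 and 1.61 in these comparisons, the degradation factor Herpud1 by 2.33 against glands, and the main chaperone Hspa5 by 0.91 (adjusted p = 0.0013). Of 12 sterol synthesis genes 5 were higher and 0 lower, against 20.3% and 12.3% of all genes. The higher count was 3 without normal gland 1. Farnesyl diphosphate synthase (Fdps) rose by 2.35 and Dhcr7, the last enzyme of cholesterol synthesis, by 2.22. Of 17 ribosome biogenesis genes 8 were higher and 1 lower, against 20.3% and 12.3% of all genes. The higher count was only 5 without MMTV-PymT 1 or normal gland 1, 4 without normal gland 3, 5 after quantile normalization and 3 after centring. The nucleolar protein gene Nop58 rose by 2.36 and ornithine decarboxylase (Odc1), the first enzyme of polyamine synthesis, fell by 1.80.

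Of 22 genes of glycolysis and the hypoxia response 6 were higher and 2 lower, against 20.3% and 12.3% of all genes. The collagen-modifying enzymes Plod2 and P4ha1 rose by 4.73 and 2.95, and Car9, a carbonic anhydrase induced by hypoxia, by 4.67, with tumors at 6.68, 7.70 and 9.17 and glands at 2.70, 2.49, 2.56, 4.81 and 2.57. Plod2 and Car9 were each highest in MMTV-PymT 5. Hexokinase genes moved apart, Hk1 higher by 1.66 (adjusted p = 0.00046) and Hk2, the form of muscle and fat, lower with a difference of -2.60 (adjusted p = 0.00018). The mitophagy receptor gene Bnip3, which is itself induced by hypoxia, fell by 2.65 (adjusted p = 0.00035). Skeletal muscle and adipocyte markers, which were lower in most tumors, moved with these 2 decreases, and their part in them was not tested.

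Interferon response genes were higher in part, with a wide spread among tumors. Of 21 measured 8 were higher, 0 lower and 13 not called (median 1.43), against 20.3% higher and 12.3% lower of all genes. Ifit1, an antiviral RNA-binding protein, was at 7.23, 8.21 and 10.74 in the tumors and 2.08, 2.09, 2.28, 2.28 and 2.28 in the glands (difference 6.41, SE 1.30, adjusted p = 0.00021). Oasl2, Usp18 and Ifit3 rose by 5.48, 4.83 and 4.54. Each of these 4 genes was highest in MMTV-PymT 3 and second highest in MMTV-PymT 1. Acute phase genes showed another pattern. The serum amyloid genes Saa1 and Saa2, which share much of their sequence so that their probe sets may not tell them apart, were at 11.04 to 13.67 and 9.03 to 12.44 in the tumors, overlapping with the glands (differences 1.22 and 1.64, adjusted p = 0.60 and 0.38), and were 9.07 and 7.12 above the other MMTV tumors (adjusted p = 5.3e-06 and 3.4e-05). A single MMTV-c-Myc tumor reached 13.98 for Saa1. Of the 14 acute phase genes measured 0 were higher and 1 lower than in normal gland, against 20.3% and 12.3% of all genes. The lower gene was Orm1, with a difference of -7.72. Against the other MMTV tumors 4 were higher, where the share of all genes was 4.95%.

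The largest increases without overlap included Aqp5 and Car12, described above, and the following genes. Scgb2b27, a secretoglobin of exocrine glands, was at 12.26, 13.75 and 14.30 in the tumors and 2.68, 2.47, 2.49, 2.53 and 3.39 in the glands (difference 10.74, SE 1.47, adjusted p = 5.3e-07, limma). Its neighbour in the family, Scgb1b27, rose by 8.23, the unnamed transcript 2310057J18Rik by 9.66 and Chil1, a chitinase-like secreted protein, by 8.97. Arg1, the arginase found in alternatively activated macrophages and in some epithelia, was at 10.47, 11.19 and 13.36 in the tumors and 2.62, 2.06, 2.59, 3.10 and 2.57 in the glands (difference 9.05, adjusted p = 1.2e-06). Foxi1, the forkhead factor that directs acid-secreting ionocytes and intercalated cells of the kidney, was at 9.87, 10.85 and 11.10 in the tumors and 2.52, 2.32, 2.34, 2.31 and 2.31 in the glands (difference 8.31, SE 1.08, adjusted p = 1.9e-07). Atp6v1b1, the proton pump subunit of such cells and a known target of Foxi1, was at 8.52, 10.05 and 10.68 against 2.56, 2.59, 2.58, 2.64 and 2.63 (difference 7.37, adjusted p = 7.8e-07). All glands were thus at the floor for both genes and all tumors well above it. Hey1, a Notch target, rose by 7.47, Col11a1, a fibrillar collagen chain, by 7.75 and Cldn2, a claudin that forms cation pores, by 7.36. The other Cldn2 probe set rose by only 3.22 (adjusted p over probe sets 0.0012, limma). Among decreases, the lung-type collectin Sftpd, which the pregnant gland carried at 12.31 to 14.85, was at 3.82 to 4.51 in tumors (difference -9.62, adjusted p = 2.6e-07).

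Foxi1 and Atp6v1b1 were also higher than in the other MMTV tumors, by 4.60 (SE 0.84, adjusted p = 0.00052) and 3.79 (SE 0.80, adjusted p = 0.0025). The 4 models were not alike. Foxi1 averaged 10.42 in MMTV-Her2/neu, where the lowest tumor was at 10.10 and the range overlapped with MMTV-PymT, against 7.35 in MMTV-H-Ras tumors, which reached 11.63, 3.54 in those of MMTV-c-Myc and 2.98 in those of MMTV-Wnt1. Of 9329 genes, 161 were higher than both normal gland and the other MMTV tumors and 58 lower than both. The largest such increases were those of Clca3a2, a secreted calcium-activated chloride channel regulator (6.73 above the other models), 2310057J18Rik (5.51), Dkkl1 (5.40), Fcgbp, a mucus-associated IgG-binding protein (5.31), Lrg1 (5.24), Scgb1b27 (5.23), the cadherin Cdhr1 (5.04) and 2610528A11Rik (4.89), all with adjusted p of 0.0077 or below. Clca3a2 was at 12.31, 13.45 and 14.04 in the tumors and 6.34, 7.41, 7.92, 8.27 and 8.52 in the glands. Lrg1 passed against normal gland by a small margin (difference 2.70, adjusted p = 0.043), a call lost after centring (0.089), after quantile normalization (0.066) and on leaving out any single array but MMTV-PymT 5, with adjusted p up to 0.11 (without normal gland 1). Dkkl1 was at 6.35 in MMTV-PymT 5 and at 9.79 to 10.79 in the other 5 tumors. The largest decreases against both were Pdk4 (-3.76 against the other models), Cd93 (-3.20), Serhl (-3.11), Pdgfrb (-3.04), Tns1 (-2.97), H6pd (-2.94), Tagln (-2.89) and Col4a2 (-2.83). Counts in this comparison depended on single tumors. Higher genes numbered 174 without MMTV-PymT 2, 193 without MMTV-PymT 1, 194 without MMTV-PymT 3 and 458 without MMTV-PymT 5. Lower genes numbered 62 without MMTV-PymT 1, 66 without MMTV-PymT 2, 74 without MMTV-PymT 3 and 85 without MMTV-PymT 4.

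**Figure D3:**
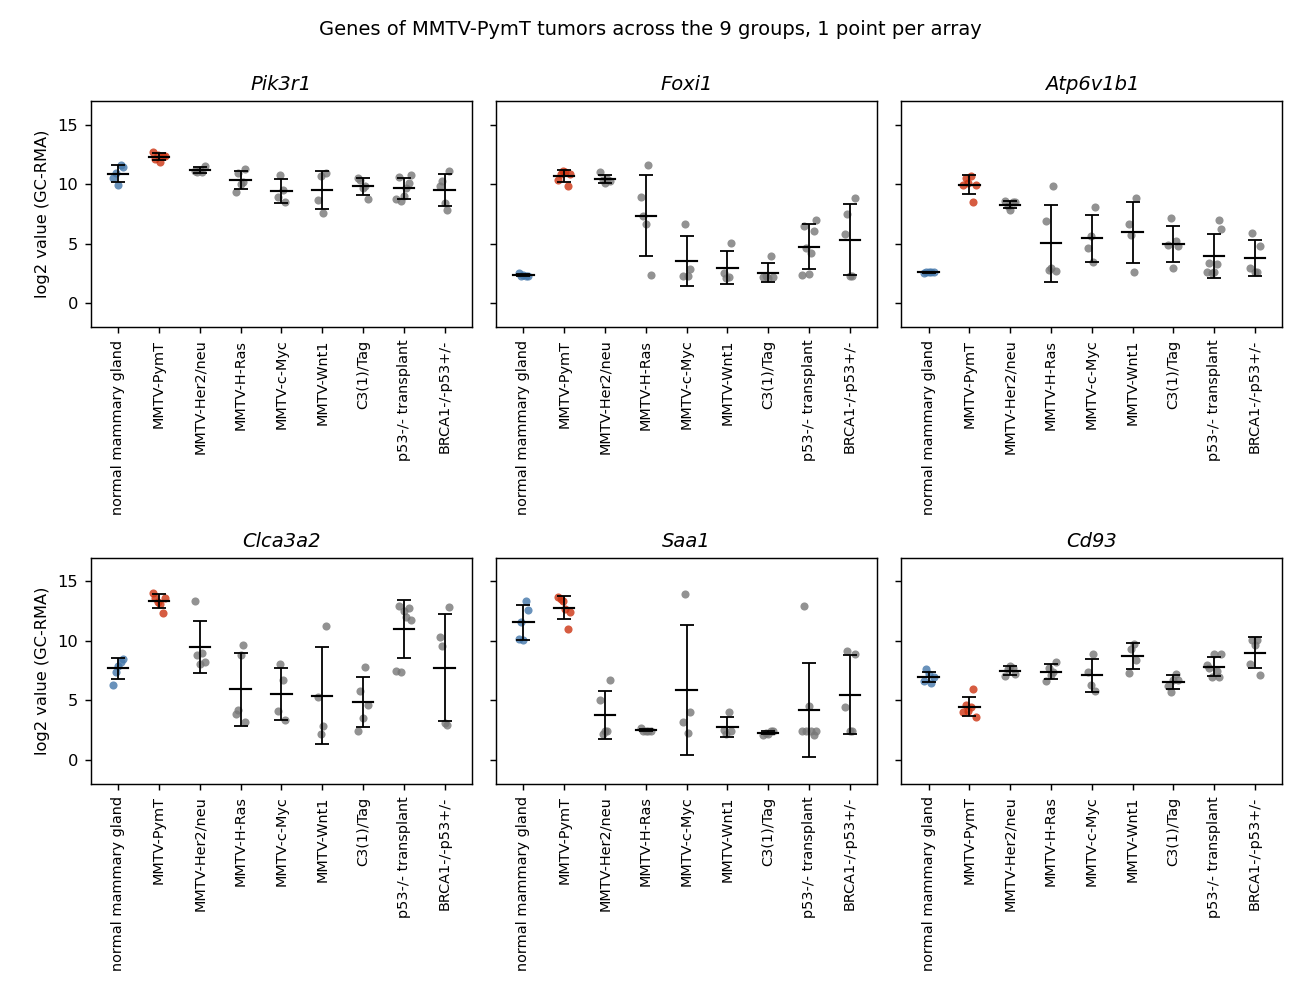
Log2 values of 6 genes in all 9 groups of the series, 1 point per array, with normal gland in blue, MMTV-PymT in red, the other models in grey, the mean as a line and the SD as error bars. Pik3r1 was higher in all 6 MMTV-PymT tumors than in any other array, Foxi1 overlapped with MMTV-Her2/neu and MMTV-H-Ras, and Saa1 was high in MMTV-PymT and normal gland.

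Several of these decreases are genes of vessels and their supporting cells. Of 16 endothelial markers measured 14 were lower than in normal gland and 0 higher (median -2.89), and 8 were lower than in the other MMTV tumors, against 2.37% of all genes by the same rule. The mean level of the list was 3.47 to 4.11 in the tumors and 5.79 to 7.59 in the glands. Esam, an adhesion molecule of endothelial junctions, was at 3.83, 5.16 and 6.07 in the tumors and 7.69, 9.01, 8.97, 8.02 and 8.08 in the glands (difference -3.31, adjusted p = 0.00018), and it was 2.53 below the other models (difference -2.53, adjusted p = 0.0017). The angiopoietin receptor Tek fell by 3.93, VE-cadherin (Cdh5) by 3.55, claudin 5 (Cldn5) by 3.56, and the transcription factors Sox17 and Sox18 by 3.77 and 3.42. Pecam1, a common endothelial marker, was at 2.13 to 3.36 in tumors and at 3.04, 7.50, 6.57, 3.10 and 3.51 in glands, where its difference of -1.93 (adjusted p = 0.029) lost its call in the 11 arrays (0.079), after quantile normalization (0.058), and without normal gland 2 (0.17), normal gland 3 (0.13), MMTV-PymT 5 (0.056) or MMTV-PymT 6 (0.055). Endoglin (Eng), a TGF-beta co-receptor, and Cd93, an endothelial surface protein, fell by 2.43 and 2.49. Pdgfrb, the receptor of pericytes and fibroblasts, was at 4.81, 6.14 and 7.00 in the tumors and 8.52, 9.24, 9.52, 8.68 and 9.13 in the glands (difference -3.01, adjusted p = 0.0016), and the mean over its probe sets fell by 1.99 (adjusted p = 0.038). Col4a2, a chain of basement membrane collagen, fell by 2.96.

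Of 18 fibroblast and matrix genes 6 were lower and 0 higher (median -2.22), against 12.3% and 20.3% of all genes. This count was 12 in the 11 arrays, 11 after centring, 3 with the replicate number as a block, 3 with no filter on low values, and 3 without MMTV-PymT 6 or without normal gland 1, 3, 4 or 5. Decorin (Dcn) fell by 4.97, with tumors from 2.74 to 9.60, and collagen III (Col3a1) by 2.36. The main fibrillar collagen gene Col1a1 was at 4.73 to 9.83 in tumors and 9.48 to 10.78 in glands (difference -2.33, adjusted p = 0.11, and 0.036 in the 11 arrays). Skeletal muscle genes, 12 of 14 lower, averaged 12.14, 5.54, 11.81, 10.51 and 12.80 in the glands and 2.77 to 8.32 in the tumors, so that normal gland 2 lay within the tumor range. The count was 6 without MMTV-PymT 5 or normal gland 5, and 7 without MMTV-PymT 6, normal gland 1 or normal gland 3. The troponin gene Tnnt3 was at 5.71 in normal gland 2 and at 11.85 to 13.53 in the other 4.

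Macrophage markers did not move as a list. Of 19 measured 2 were higher and 1 lower (median 0.52), against 20.3% and 12.3% of all genes. In the 11 arrays 6 were higher and 2 lower, and 1 was higher without MMTV-PymT 2, MMTV-PymT 3, normal gland 1 or normal gland 2. The mean level was 7.16 to 9.08 in tumors and 7.44 to 7.93 in glands. Macrophages are a known component of these tumors and respond to colony stimulating factor 1. The lysosomal protein gene Cd68 rose by 2.42 (adjusted p = 0.017, and 0.051 without normal gland 1), while Cd163, a receptor of resident macrophages, fell by 2.68 (adjusted p = 0.0058). Adgre1, which encodes the F4/80 antigen, was at 6.90 to 7.92 in tumors and 7.36 to 8.83 in glands (difference -0.71, adjusted p = 0.24), and Csf1 at 7.39 to 8.28 and 5.76 to 8.12 (difference 0.46, adjusted p = 0.65). Among 20 signals that recruit or polarise myeloid cells 2 were higher and 3 lower, against 20.3% and 12.3% of all genes. In the 11 arrays alone 4 were higher. The neutrophil chemokine Cxcl1 rose by 3.38 and Cxcl14, a chemokine of epithelium and fat, fell by 3.36. The calprotectin subunit gene S100a8, of neutrophils and some epithelia, was at 9.27, 11.27 and 12.72 in tumors and 7.35, 6.39, 5.93, 7.93 and 8.04 in glands (difference 4.03, adjusted p = 0.0043), and 4.88 above the other MMTV tumors (adjusted p = 0.00029). The other 2 neutrophil markers measured did not pass. Of 17 matrix protease and inhibitor genes 1 was higher and 0 lower, against 20.3% and 12.3% of all genes. The higher count was 0 on leaving out any 1 of 8 arrays, after centring or after quantile normalization. In the 11 arrays alone 2 were higher and 5 lower, and after centring 2 were lower.

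MMTV-PymT 2 carried mRNAs of salivary gland that the other tumors lacked. The mean level of 14 salivary secretory genes was 11.84 in that tumor, 5.23 to 5.92 in the other 5 and 4.26 to 5.40 in the glands. Among the 6 tumors, the 8 genes with the largest SD were all high only there. Mucl2 was at 15.04, Mucl1 at 14.69, Chia1 at 14.48 and Amy1 at 14.43. Bpifa2 was at 14.33, Cst10 at 14.17, Smr3a at 13.94 and Dnase1 at 13.64. Every other tumor was at 5.87 or less in each of these genes. Amylase (Amy1) was also high in the glands, at 11.18, 11.42, 11.31, 9.92 and 9.62, and was called lower in the tumors (difference -6.18, adjusted p = 0.006). Bpifa2 too had a higher mean in the glands than in the tumors, without a call (difference -0.68, adjusted p = 0.83, limma). Without MMTV-PymT 2 its difference was -2.54. The tear and saliva gene Prol1 was at 6.47 to 9.20 in the other 5 tumors and 2.28 to 5.61 in the glands, and its call held without MMTV-PymT 2. Dcpp1, a parotid protein gene, lost its call without that tumor (3.91, adjusted p = 0.063). The same tumor was highest of the 6 in the lists of T cells (4.84), B and plasma cells (7.37) and adipocytes (6.25). It was also highest of the 6 in those of macrophages (9.08), skeletal muscle (8.32) and lymph node stroma (4.93). For macrophages and skeletal muscle the next tumors were close, at 8.61 and 7.96. The immunoglobulin joining chain gene Jchain was at 7.30 there, 2.33 to 2.84 in the other tumors and 9.09, 6.99, 9.77, 10.81 and 8.32 in the glands (difference -5.72, adjusted p = 0.0015). Scgb2b27, Aqp5 and Car6, which salivary gland also makes, were high in all 6 tumors, and their calls held without MMTV-PymT 2.

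**Figure D4:**
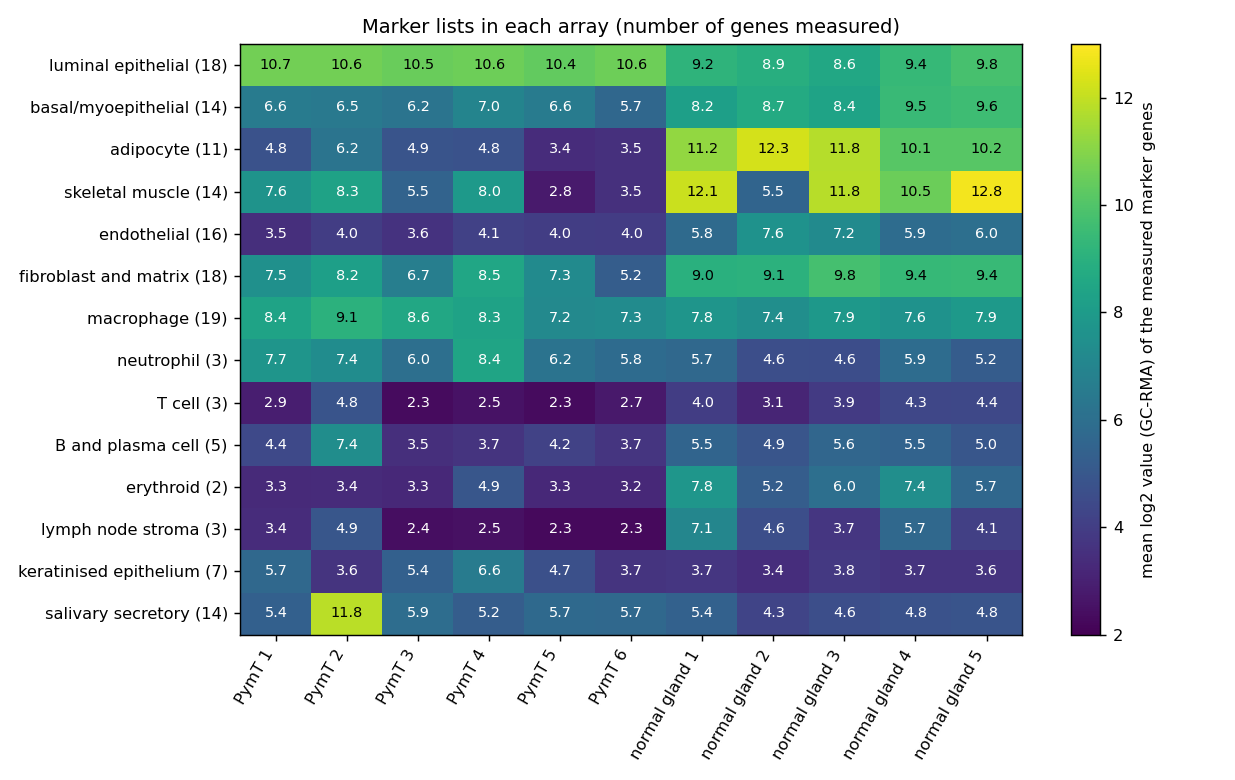
Mean log2 value of the measured markers of 14 cell types in each MMTV-PymT tumor and normal gland, with the number of genes measured beside each name. Salivary genes reached 11.84 in MMTV-PymT 2 alone, skeletal muscle genes were low in normal gland 2 at 5.54, and adipocyte genes were at 10.14 or more in every gland.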

How the data were processed

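Total RNA of each tumor or gland was hybridized to 1 Affymetrix mouse array, and per the labels the authors used GCOS, Partek GC-RMA and MAS5, versions not given in the sources used here. The deposited log2 values were used as given. Per the methods, probe sets present or marginal in fewer than 3 samples had been removed. The table held 18586 probe sets in 46 arrays. Array medians of the 11 arrays compared lay between 6.75 and 7.40, and 0 columns were left unused. Arrays have no read depth, and their number sets the precision. By the annotation of the platform 16962 probe sets had 1 gene, 569 several and 1055 none, and symbols were updated through RefSeq (GRCm38.p6). Probe sets with a log2 value over 4 in at least 3 arrays were kept, and the probe set with the highest mean over all arrays stood for a gene, which left 9329 genes.

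limma 3.58.1 in R 4.3.3 (lmFit, eBayes) was fitted to all 46 arrays in 9 groups, with contrasts of MMTV-PymT against normal gland and against the equal-weighted mean of the other 4 MMTV models. SE and adjusted p come from that fit. Data were simulated for MMTV-PymT against normal gland with 9329 genes, of which 200 were changed. In them 70% of changes of 2 and 95% of changes of 4 on the log2 scale were recovered. In the arrays 1468 genes were called higher and 976 lower. Calls there also depended on the groups fitted. Lalba, with a difference of -2.14, had adjusted p = 0.41 in the 9-group fit and 0.00053 in the 11 arrays (limma). The recovered shares therefore describe the simulated data and not the power of the comparison made here. The labels do not say that the glands came from separate mice, so p values measure the spread between samples. No scan date is stated, so batches could not be examined. Figures were drawn with matplotlib 3.10.9.

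Named genes were 28 marker genes, 26 of them measured, the 12 largest non-overlapping differences per direction against normal gland, the 8 per direction called in both comparisons, up to 5 members per direction of each of 34 gene lists, the 8 genes of largest SD in the tumors and the 10 of highest mean. Not every gene so named is described. Csn1s1, Saa1, Saa2 and Slc34a2 against the other models, and any other list member outside the rule, were chosen after their values were seen. The members and lists were chosen with earlier results of these data known. Alternatives changed the samples fitted, the filter, the normalization, the probe set rule, the variance model, the replicate block and single arrays.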

Additional observations from a re-analysis of the deposited data

Results flagged for a closer look

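Values of 1 array that stood far from its group numbered 42 over 400 groups of values tested, 17 of them in MMTV-PymT 2. Chance alone marks about 5% of independent groups not chosen for their spread. The groups tested included the 8 genes of largest SD over the tumors, all of them marked in MMTV-PymT 2. Genes of a list also vary together, so the count of 42 cannot be set against that share. In MMTV-PymT 2 the salivary genes Mucl2 (15.04), Mucl1 (14.69), Chia1 (14.48), Amy1 (14.43), Bpifa2 (14.33), Prol1 (14.21), Cst10 (14.17), Smr3a (13.94) and Dnase1 (13.64) and the mean of the salivary list (11.84) were far above the other 5 tumors. So were the means of the T cell (4.84) and the B and plasma cell list (7.37) and the genes Jchain (7.30), Cyp2e1 (5.99), Retn (5.01), Cidec (3.79) and Tek (3.83). MMTV-PymT 1 was high in Csn1s2b (4.92), Olah (4.36) and Fabp3 (4.11). MMTV-PymT 4 was high in Krt14 (10.72), Serhl (8.92) and the erythroid list (4.95) and low in Lalba (10.86). MMTV-PymT 5 was low in Elf5 (11.99), Atp6v1b1 (8.52), Cldn2 (8.38), Cldn1 (8.21) and Dkkl1 (6.35), and MMTV-PymT 6 was low in Odc1 (8.84) and Krt5 (4.60).

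Among the glands, normal gland 4 was low in Cdk4 (7.52), Tnfsf11 (2.80) and Mcm5 (2.67) and high in Car9 (4.81), normal gland 3 was low in Top2a (4.91) and high in Dcpp1 (3.58), and normal gland 2 was low in Tnnt3 (5.71). Normal gland 1 was high in Prol1 (5.61), Cxcl1 (5.39) and Foxi1 (2.52), and normal gland 5 in Scgb2b27 (3.39).

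MMTV-PymT differed from the other MMTV models, by the limma contrast itself, in 37 of the genes described. Genes were listed here because they were called in that contrast, and some were named for their size in it. Their number is therefore set by the choice of genes. Over the whole array 3.24% of genes were higher and 1.46% lower. Differences in log2 were 9.07 for Saa1, 7.12 for Saa2, 6.73 for Clca3a2, 5.51 for 2310057J18Rik, 5.40 for Dkkl1, 5.31 for Fcgbp, 5.25 for Lalba, 5.24 for Lrg1, 5.23 for Scgb1b27 and 5.04 for Cdhr1. They were 4.89 for 2610528A11Rik, 4.88 for S100a8, 4.60 for Foxi1, 4.59 for Wap, 4.40 for Cldn2, 4.35 for Scgb2b27, 3.80 for Hey1, 3.79 for Atp6v1b1, 2.91 for Slc34a2, 2.59 for Ddit4, 2.43 for Sdf2l1, 2.31 for Muc1, 2.21 for Pik3r1, 1.61 for Pdia4 and 1.13 for Grb2. Lower genes had -3.76 for Pdk4, -3.20 for Cd93, -3.11 for Serhl, -3.04 for Pdgfrb, -2.97 for Tns1, -2.94 for H6pd, -2.89 for Tagln, -2.83 for Col4a2, -2.53 for Esam, -2.29 for Sox18, -2.15 for Etv4 and -1.68 for Eng.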

How the results depend on the processing

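Centring each array on its median gave 966 genes higher than in normal gland in place of 1468 and 252 genes lower than in the other MMTV tumors in place of 136, and the fit of the FVB groups alone gave 221 of the latter. Leaving out 1 array at a time gave 1224 to 1533 genes higher and 860 to 976 lower than in normal gland, and 174 to 458 higher and 62 to 193 lower than in the other MMTV tumors, where the lowest counts came without MMTV-PymT 2 and MMTV-PymT 1 and the highest without MMTV-PymT 5. Csn3 turned to 0.070 with quantile normalization and to 0.29 with the mean over probe sets. Leaving out MMTV-PymT 2 turned uncalled differences in salivary genes. The leave-one-out range was -0.029 to 2.39 for Cst10, -0.040 to 2.43 for Chia1, -1.28 to 1.34 for Mucl2, -0.70 to 1.76 for Mucl1 and -0.049 to 2.26 for Dnase1, and -2.54 to 0.19 for Bpifa2, which turned without normal gland 1. The causes were not tested. Replicate numbers pair no mice, and same-numbered samples did not deviate together (correlations of -0.068 to -0.008). With the replicate block 1467 genes were higher and 963 lower than in normal gland, and 328 higher and 148 lower than in the other MMTV tumors, with no call changed among the 166 and 37 genes described, though the fibroblast and matrix list went from 6 lower genes to 3. GC-RMA floors near 2 make large differences from that level approximate.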
